A study of Mus musculus with 12 samples.

Results

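The panel examined here was a set of 41 genes for regulators of the actin cytoskeleton and of focal adhesions, measured in sorted heart muscle cells, or cardiomyocytes (CMs), with and without Srf, the gene for serum response factor (SRF). Its members were picked by gene symbol as actin-binding, nonmuscle myosin, smooth muscle and adhesion genes, many of them known targets of SRF, and all 41 were present among the 23337 genes of the count tables. RNA was counted in 12 samples, 3 in each of 4 groups. Knockout (KO) mice were Srf-flox/flox and control (CTRL) mice were Srf-flox/+, so that CTRL CMs lost a copy of the gene as well and kept an intact one. Both genotypes carried a Cre-dependent fluorescent reporter at the Rosa locus (Cas9GFP, tdTomato or mTmG, on a mixed genetic background), and both received AAV9-cTNT-Cre, an adeno-associated virus that expresses Cre recombinase in CMs from the cardiac troponin T promoter, at 500000000 viral genomes per g. Neonatal KO and CTRL mice were injected on postnatal day (P) 1 for collection at P14, and adult KO and CTRL mice were injected at P60 for collection at P90. The dose was low, which left most CMs of each heart untouched, and the fluorescent CMs were sorted. The time from injection to collection was longer in the adult model. Stage cannot be told apart from that time or from any difference in handling between the P14 and the P90 experiments.

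Actin cycles between free monomers and filaments. Free monomers hold the MRTF coactivators in the cytoplasm, and when filaments grow, MRTFs enter the nucleus and drive SRF at CArG boxes in the promoters of actin and of many genes that handle actin, so that the panel holds regulators of this loop as well as its targets. In CMs most actin sits in sarcomeres, and the nonsarcomeric members studied here serve the costameres, the Z-discs, the intercalated discs and the pool of free actin. The 41 genes were grouped by role into 11 adaptors of adhesions and Z-discs, 2 filamins, 6 calponin family and smooth muscle genes, 6 nonmuscle myosin genes, 8 genes of filament turnover and monomer binding, and 8 genes of capping protein and the Arp2/3 complex.

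Total counts per sample ran from 9740389 to 23103460. Levels are given as CPM, counts scaled to a common library depth, and 3 counts corresponded to between 0.138 and 0.326 CPM. The targeted gene Srf was 63.9, 57.1 and 49.4 CPM in neonatal CTRL and 32.1, 27.5 and 9.75 CPM in neonatal KO, a log2 fold change of -1.30 ± 0.36 (adjusted p = 0.0628), and 71.1, 59.1 and 81.0 against 32.8, 28.9 and 28.1 CPM in the adult model, a log2 fold change of -1.23 ± 0.13 (adjusted p = 0.00347). Counts cover all exons of Srf, so transcripts of a recombined allele are included where they are made. The 10 defining CM markers, Myh6 among them, were present in all samples, with a summed level of 104574 to 110866 CPM in neonatal CTRL, 71743 to 78395 CPM in neonatal KO, 98660 to 107370 CPM in adult CTRL and 87273 to 89178 CPM in adult KO. Markers of immune cells summed to at most 15.6 CPM in any sample. Myh6 was the largest part of the CM sum, with a mean of 55692 CPM in neonatal CTRL and 35495 CPM in neonatal KO. Of the 10 markers 8 had negative values there, while Actn2 was higher, at 5373 and 6502 CPM. The paper reports Myh6 and Myl3 as lowered in neonatal KO and as bound by SRF, so the sum includes genes that respond to the KO. In bulk samples, fewer cells of a type and less RNA per cell cannot be told apart.

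Neonatal KO raised more members than it lowered. At an adjusted p-value under 0.05, 9 of the 41 members were up-regulated and 2 were down-regulated, together 26.8% of the panel, while 8.59% of all 12546 genes tested were called at P14. The up-regulated share of the panel was 22% beside 3.99% of all genes, and the down-regulated share was 4.88% beside 4.6%, so in this fit, which does not pair the samples, the share of falling members was near that of all genes. When same-numbered samples were blocked together, 7 members fell (17.1%, beside 6.47% of all genes), while 9 rose (22%, beside 5.71%). The median log2 fold change of the 41 members was 0.12, beside 0.0011 over all genes. The rise was led by adaptors of adhesions and Z-discs (5 of 11 up), the muscle filamin Flnc, the nonmuscle myosin genes Myh10 and Myl12a and the filament-severing protein Gsn. The falling members past the threshold were Capzb, which caps the fast-growing end of filaments, and Wdr1, which assists cofilin in taking filaments apart.

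**Figure D1:**
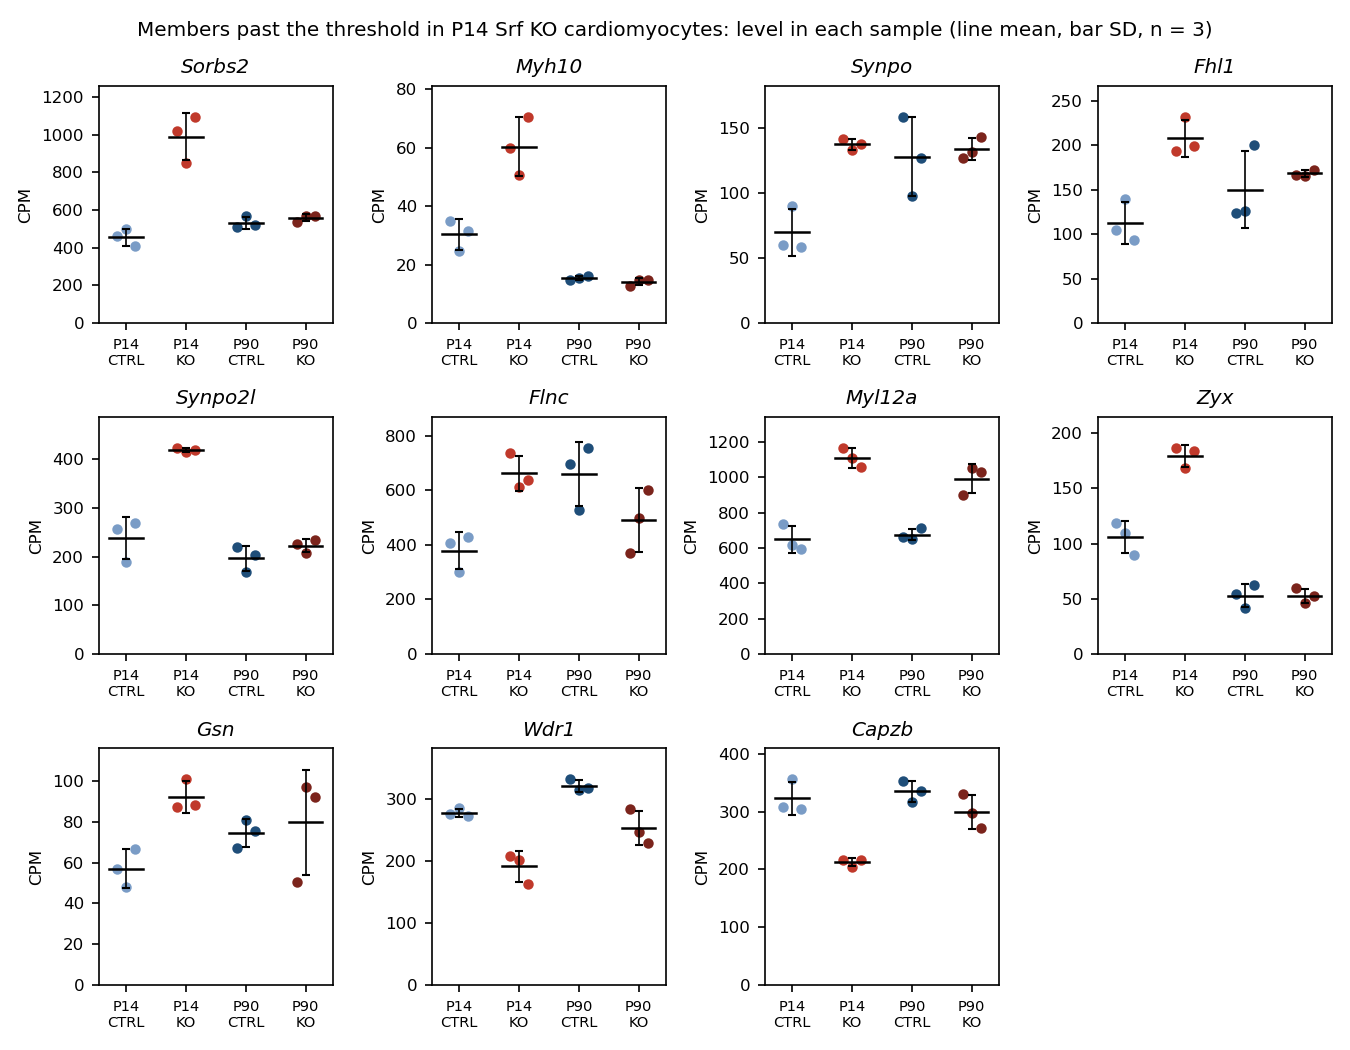
Level of each of the 11 members past the threshold in neonatal KO, in CPM on linear axes from 0, for the 4 groups, with samples as points, means as lines and the SD of 3 samples as bars. The P14 KO points of Sorbs2 lie between 850.4 and 1094 CPM, above all other samples, while the P90 KO points overlap those of P90 CTRL.

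Sorbs2, an adaptor with SH3 domains at Z-discs and intercalated discs, had the largest rise among members past the threshold. Its level was 461, 498 and 407 CPM in neonatal CTRL and 1020.3, 850.4 and 1094 CPM in neonatal KO. The lowest KO sample was above the highest CTRL sample, and the log2 fold change was 1.12 ± 0.14 (adjusted p = 0.00732). Synpo, the gene for synaptopodin, an actin-bundling partner of alpha-actinin, was 59.9, 90.3 and 58.8 CPM in neonatal CTRL and 141, 133 and 138 CPM in neonatal KO. The groups did not overlap and KO samples were tightly spaced, with a log2 fold change of 0.98 ± 0.17 (adjusted p = 0.0172). Its relative Synpo2l, which localizes to Z-discs in heart and skeletal muscle, read 256, 188 and 269 CPM in neonatal CTRL and 423, 415 and 418 CPM in neonatal KO. All KO samples were again higher, with a log2 fold change of 0.81 ± 0.14 (adjusted p = 0.0172).

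For Fhl1, a LIM domain protein that takes part in stretch sensing at the titin filament, the levels were 105, 139 and 92.9 CPM in neonatal CTRL and 193, 232 and 199 CPM in neonatal KO. Even the highest CTRL sample stayed below the lowest KO sample, and the log2 fold change was 0.88 ± 0.16 (adjusted p = 0.0189). Zyx, the gene for zyxin, a LIM protein that is recruited to adhesions and filaments under tension, was 119, 109.8 and 90.1 CPM in neonatal CTRL and 187, 168 and 184 CPM in neonatal KO, without overlap and with a log2 fold change of 0.75 ± 0.13 (adjusted p = 0.0153). The other 6 adaptors did not pass. Palld (palladin, an alpha-actinin partner) and Tln1 (talin, which links integrins to actin) had values of 0.37 ± 0.12 and 0.46 ± 0.19, with KO samples above all CTRL samples in both. Vasp, which promotes filament elongation, had a value of -0.59 ± 0.20 (adjusted p = 0.104) with all KO samples below CTRL. Vcl (vinculin), Lpp and Lima1 overlapped between groups, at -0.084 ± 0.11, 0.095 ± 0.17 and -0.20 ± 0.20.

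Of the 2 filamins, which cross-link actin filaments, 1 passed. Flnc, the striated muscle filamin, was 406, 300.4 and 428 CPM in neonatal CTRL and 735, 612 and 639 CPM in neonatal KO. Its groups were apart, with a log2 fold change of 0.80 ± 0.16 (adjusted p = 0.0214). Flna, the widely expressed filamin, was 239, 177 and 215 CPM in neonatal CTRL and 201, 172 and 130.4 CPM in neonatal KO, with overlapping groups and a log2 fold change of -0.33 ± 0.18 (adjusted p = 0.283).

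Within nonmuscle myosin, a heavy chain and a light chain rose, whereas the light chains Myl9 and Myl6 had negative values that did not pass. Myh10, the heavy chain of nonmuscle myosin IIB, was 34.96, 24.5 and 31.5 CPM in neonatal CTRL and 60.1, 50.5 and 70.6 CPM in neonatal KO. KO samples were higher throughout, with a log2 fold change of 0.99 ± 0.17 (adjusted p = 0.0163). Myl12a, a regulatory light chain, was the most abundant member per kb of exon in each of the 4 groups, and its level was 734, 615 and 596 CPM in neonatal CTRL and 1166, 1107 and 1056 CPM in neonatal KO. The groups did not overlap and the log2 fold change was 0.77 ± 0.12 (adjusted p = 0.0132). Of the 50-base words in Myl12a transcripts, 16.4% occur in other genes, mainly its neighbour and near copy Myl12b, so a part of the reads could be split between the pair, and Myl12b had a log2 fold change of 0.18 ± 0.15 (adjusted p = 0.515). Myh9, the heavy chain of nonmuscle myosin IIA, had a value of 0.57 ± 0.27 (adjusted p = 0.233).

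Myl9, the smooth muscle type regulatory light chain and a known SRF target, had the most negative value of the panel. Its level was 272, 304 and 95.8 CPM in neonatal CTRL and 92.8, 94.9 and 26.4 CPM in neonatal KO. KO samples lay below CTRL samples without overlap, but by a narrow margin, with CTRL replicate 3 far below the other CTRL samples, and the log2 fold change of -1.65 ± 0.53 (adjusted p = 0.0939) did not pass. Myl6, the essential light chain, was 43.1, 40.6 and 26.5 CPM in neonatal CTRL and 26.3, 26.1 and 20.3 CPM in neonatal KO, a log2 fold change of -0.61 ± 0.20 (adjusted p = 0.0963). Among KO samples replicate 3 had the lowest level of Srf and of Myl9, Myl6 and Cnn2, and among CTRL samples replicate 3 was likewise the lowest for these 4 genes. This order was not particular to them, as replicate 3 was also the lowest in both groups for Vcl, Cfl2, Cap2, Wdr1 and Tagln2.

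Among the 6 calponin family and smooth muscle genes, 0 passed the edgeR threshold, while 1, Cnn2, had an unadjusted p under 0.05 and was called by DESeq2. Cnn2, the gene for calponin 2, was 43.5, 32.2 and 27.1 CPM in neonatal CTRL and 19.2, 21.9 and 8.28 CPM in neonatal KO. KO was lower in all samples, at a log2 fold change of -1.07 ± 0.33 (adjusted p = 0.0849). Tagln, Tagln2, Cald1, Tpm4 and Cnn1 overlapped between groups, with log2 fold changes between -0.20 for Cnn1 and 0.22 for Tagln2. Cnn1, the calponin of differentiated smooth muscle, was near the floor at 1.23 ± 0.308 CPM (SD, n = 3) in neonatal CTRL. Markers of smooth muscle and pericytes, 8 genes that include Myh11 and Rgs5 with 0 of them at 0 in a group, summed to between 420 and 531 CPM in neonatal CTRL and between 440 and 468 CPM in neonatal KO. Of these 8 markers 6 had negative and 2 positive values, and 1 was called, as higher. Smtn was the largest part of the sum, with a mean of 316 CPM in neonatal CTRL and 237 CPM in neonatal KO. Cspg4 had a mean of 48.1 CPM in neonatal CTRL and 122 CPM in neonatal KO. The sums thus hide shifts in opposite directions and do not show how many such cells were present.

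In filament turnover, 1 of 8 members passed in each direction. Wdr1 was 276, 285 and 273 CPM in neonatal CTRL and 209, 202 and 163 CPM in neonatal KO. All KO samples were lower, with a log2 fold change of -0.54 ± 0.12 (adjusted p = 0.0304). Cfl2, the muscle cofilin, which severs filaments, was 456, 648 and 414 CPM in neonatal CTRL and 355, 371 and 323 CPM in neonatal KO, and its log2 fold change of -0.54 ± 0.17 (adjusted p = 0.0952) did not pass, while the general form Cfl1 was at 0.38 ± 0.16 (adjusted p = 0.17). Gsn, the gene for gelsolin, which severs and caps filaments, was 56.7, 47.8 and 66.7 CPM in neonatal CTRL and 87.1, 101 and 88.3 CPM in neonatal KO. It was higher in every KO sample, with a log2 fold change of 0.69 ± 0.14 (adjusted p = 0.0235). Cap2, a monomer-recycling protein of striated muscle, had a value of -0.40 ± 0.15 (adjusted p = 0.131) with all KO samples below CTRL. Pfn1 (profilin), Tmsb4x and Tmsb10 (thymosins, which sequester monomers) overlapped between groups, with log2 fold changes of 0.18, -0.080 and -0.056.

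Capping protein is a pair of an alpha and a beta subunit. The beta subunit Capzb was 307, 357 and 304 CPM in neonatal CTRL and 217, 204 and 217 CPM in neonatal KO. KO was lower in all samples, with a log2 fold change of -0.60 ± 0.11 (adjusted p = 0.0186). The alpha subunit Capza2 was 292, 385 and 302 CPM in neonatal CTRL and 246, 245 and 227 CPM in neonatal KO, also without overlap, at -0.45 ± 0.13 (adjusted p = 0.0718). Capza1, the less abundant alpha subunit, had a value of 0.046 ± 0.16 (adjusted p = 0.901), and 61.4% of its 50-base words occur in other genes, so its level is uncertain. For the Arp2/3 complex, which starts branches on filaments, 0 of 5 members passed with edgeR or DESeq2, 0 had an unadjusted p under 0.05, and all 5 overlapped between groups. Their log2 fold changes ran from -0.12 for Actr2 to 0.36 for Arpc1b.

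Without regard to the threshold, 9 members were lower and 13 were higher in all neonatal KO samples than in all CTRL samples, while 16.7% and 16% of all genes were lower and higher in this way. Samples with the same number correlated at P14, but CTRL 1 with KO 2 (0.163) and CTRL 2 with KO 1 (0.138) did as well. The pairing is thus uncertain. With the replicate number as a block 16 members passed (39%, beside 12.2% of all genes). Myl9 (adjusted p = 0.0033), Cnn2 (adjusted p = 0.0228), Myl6 (adjusted p = 0.026), Vasp (adjusted p = 0.0411) and Cfl2 (adjusted p = 0.0486) were the added calls. DESeq2 called 6 members lower and 10 higher (14.6% and 24.4%, beside 7.86% and 6.19% of genes), and the fit of all 12 samples 9 and 10 (22% and 24.4%, beside 9.06% and 7.2%). Calls rested on all 3 KO samples: 1 member passed without KO replicate 1, and 2 passed without KO replicate 2 or without KO replicate 3, Sorbs2 being among them each time. All 11 calls held with the correction for gene length.

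Other lists moved in neonatal KO beside the panel. Of the 10 CM markers, 8 had negative values and 2 were called lower. The list of 10 genes of stress during cell isolation, which includes Fos, Jun and Atf3, summed to between 467 and 844 CPM in neonatal CTRL and between 694 and 1169 CPM in neonatal KO, with 9 positive values and 1 call, as higher. Endothelial markers summed to between 279 and 578 CPM in CTRL and between 343 and 530 CPM in KO (6 of 10 positive), fibroblast markers to between 118 and 327 CPM and between 198 and 350 CPM (5 of 8 tested positive) and immune markers to between 5.998 and 10.6 CPM and between 9.41 and 13.2 CPM (6 of 6 tested positive), and edgeR called 0 genes of these 3 lists, with 1 immune marker at an unadjusted p under 0.05. For the isolation stress list, a response to the loss of Srf cannot be told apart from stress during isolation. The part of these lists in the values of the panel was not tested.

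**Figure D2:**
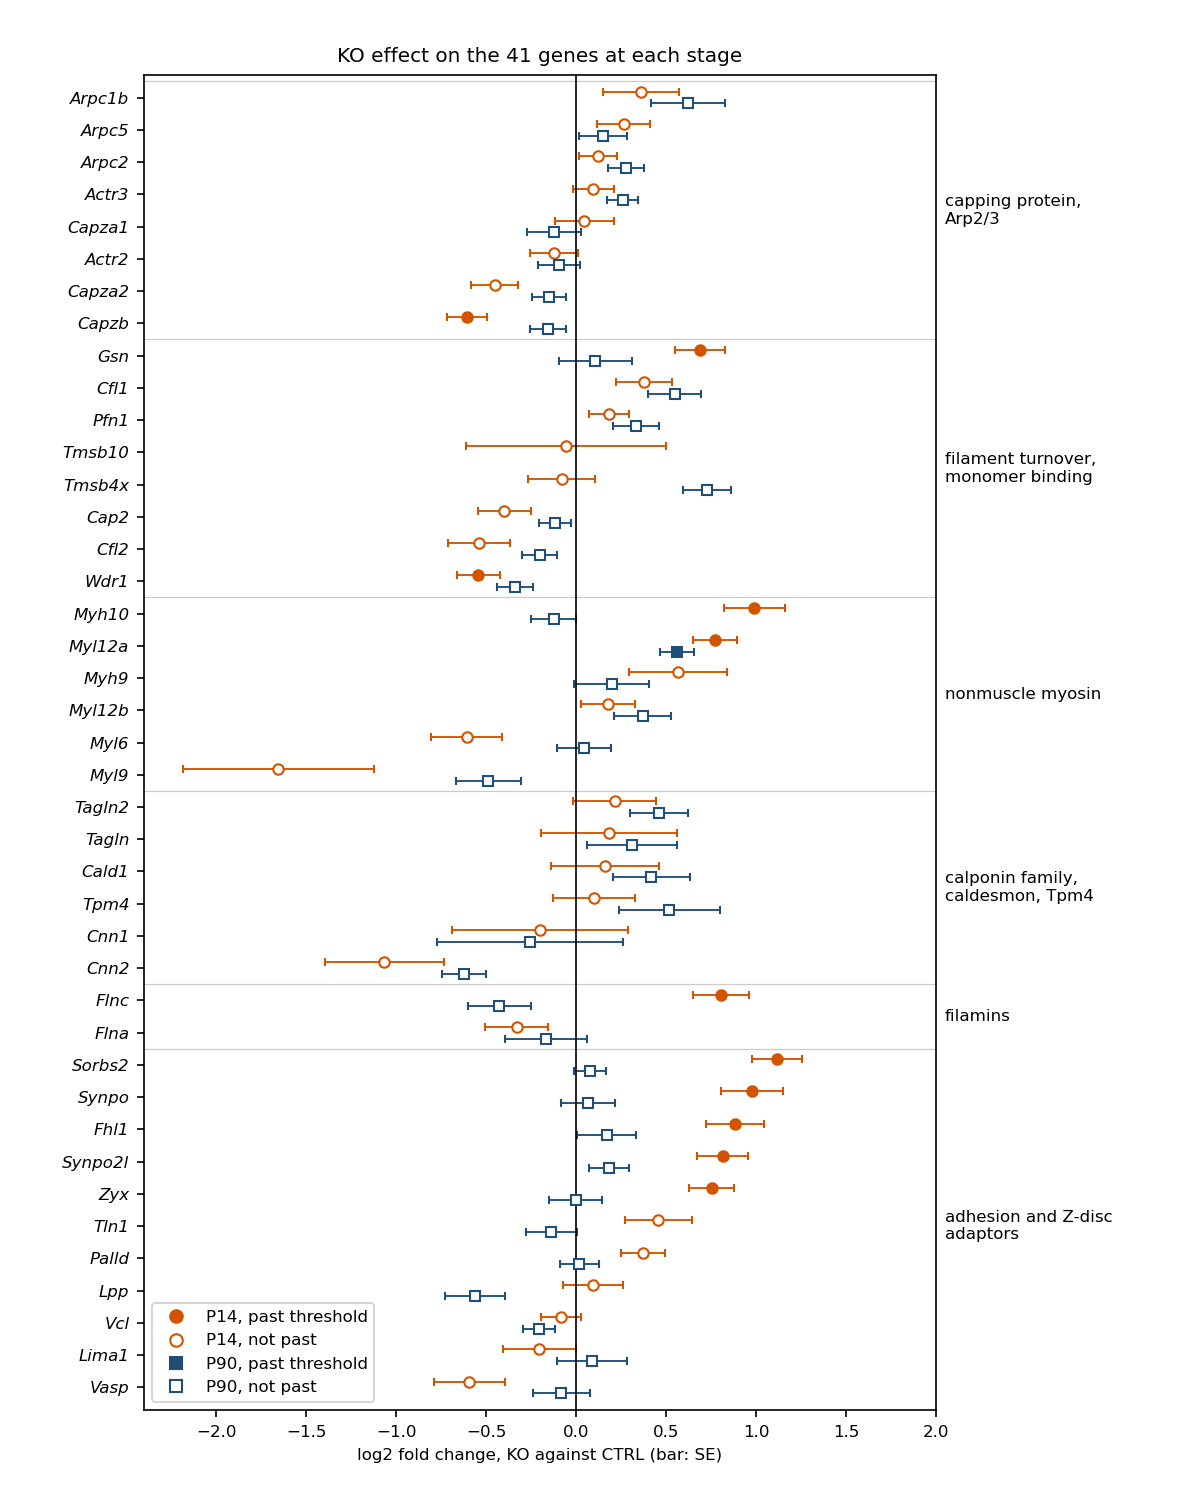
Log2 fold change of KO against CTRL with its SE (horizontal axis) for each of the 41 members, by role, at P14 (circles) and P90 (squares). Filled symbols passed an adjusted p-value of 0.05, which 11 members did at P14 and 1 at P90, and Tmsb10 has no P90 value because its counts were too low to test.

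The adult KO gave fewer calls, in the panel as among all genes. Of the 40 members tested at P90, 1 was up-regulated and 0 were down-regulated (2.5% of the panel), beside 0.39% of all 11808 genes, of which 0.237% were higher and 0.152% lower. At an unadjusted p under 0.05, 15 members were counted, 6 lower and 9 higher, while 16.2% of all genes had such a p. DESeq2 called 4 (10.3%, beside 2.87% of all genes). The called gene was Myl12a, at 664, 651 and 711 CPM in adult CTRL and 898, 1049 and 1031 CPM in adult KO. The groups did not overlap, and the log2 fold change was 0.56 ± 0.10 (adjusted p = 0.0409). That call was lost in a fit of all 12 samples (adjusted p = 0.0953) and without any of 5 of the 6 samples, the exception being KO replicate 1, with adjusted p from 0.0702 to 0.225 in those 5 fits.

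Cnn2 and Tmsb4x came next in the adult comparison. Cnn2 was 69.5, 57.1 and 61.6 CPM in adult CTRL and 46.9, 38.8 and 36.4 CPM in adult KO. Its groups were apart, and its log2 fold change was -0.62 ± 0.12 (adjusted p = 0.0554). Tmsb4x, the main monomer-sequestering thymosin, was 37.6, 36.3 and 29.5 CPM in adult CTRL and 48.2, 65.4 and 57.3 CPM in adult KO, without overlap, a log2 fold change of 0.73 ± 0.13 (adjusted p = 0.0516). Tmsb4x is a short transcript, of 670 bp, and with a correction for gene length its value was 0.51 (adjusted p = 0.195), while Cnn2 passed with that correction (adjusted p = 0.0131). Smaller positive values with the correction were also obtained for the short transcripts Pfn1 (0.33 without and 0.14 with it) and Myl12b (0.37 and 0.20). Among long transcripts the shifts differed. Lpp was at -0.56 ± 0.16 and then -0.18, and Flnc at -0.43 ± 0.17 and then -0.21, whereas Synpo went from 0.067 to 0.24, and Tln1 and Myh10 changed sign, from -0.14 to 0.071 and from -0.12 to 0.076.

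With edgeR no other member passed in adult KO, and DESeq2 called Cnn2, Tmsb4x and Cfl1 as well. Wdr1 was 333, 315 and 317 CPM in adult CTRL and 284, 247 and 229 CPM in adult KO, lower in all KO samples, with a log2 fold change of -0.34 ± 0.10 (adjusted p = 0.149). Cfl1 was at 0.55 ± 0.15 (adjusted p = 0.124) and Arpc1b at 0.62 ± 0.21 (adjusted p = 0.185), both with all KO samples above CTRL. Of the 40 members tested, 6 were lower and 7 higher without overlap at P90, beside 11.2% and 10.3% of all genes. The 8 neonatal risers other than Myl12a had adult values between -0.43 for Flnc and 0.18 for Synpo2l, and edgeR and DESeq2 called 0 of these, with 1, Flnc, at an unadjusted p under 0.05 (it passed without the filter on low counts, at an adjusted p of 0.0109, and with the replicate block, at 0.0437). The genes of isolation stress summed to between 834 and 1444 CPM in adult CTRL and between 1749 and 2823 CPM in adult KO. All 10 had positive values, with a median log2 fold change of 1.05. With edgeR 9 had an unadjusted p under 0.05 and 1 was called higher. A response of these genes to the loss of Srf cannot be told apart from stress during isolation. The part of this difference in the adult values of the panel was not tested.

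The stage by genotype interaction tested whether the KO effect differed between the models. It passed for 3 of 41 members (7.32%, beside 1.78% of 12841 genes). In all 3 the neonatal effect was the more positive, a direction called for 0.818% of all genes. The reverse was called for 0.958% of genes and 0 members. In that reverse direction 3 members had an unadjusted p under 0.05, while 19% of all genes had one in either direction. DESeq2 called 2 members in the reverse direction (5.13%, beside 5.79% of genes). The 3 members called by edgeR were Flnc, with a difference of 1.24 ± 0.26 (adjusted p = 0.0399) on the log2 scale, Myh10, with 1.12 ± 0.21 (adjusted p = 0.0257), and Sorbs2, with 1.05 ± 0.16 (adjusted p = 0.0156). Adult levels show the contrast. Myh10 was 14.8, 15.3 and 16.1 CPM in adult CTRL and 12.7, 14.7 and 14.8 CPM in adult KO, with values below those of neonatal KO and neonatal CTRL alike. Sorbs2 was 508, 567 and 518 CPM in adult CTRL and 537, 569 and 569 CPM in adult KO. Flnc was 698, 527 and 755 CPM in adult CTRL and 369.5, 499 and 602 CPM in adult KO, where its value had the opposite sign. For Synpo (0.92 ± 0.25, adjusted p = 0.0757) and Zyx (0.76 ± 0.21, adjusted p = 0.075) edgeR did not call a difference between the stages, but DESeq2 did, with adjusted p of 0.0136 and 0.0195. The 3 edgeR calls depended on single samples: without P90 CTRL replicate 3 or P90 KO replicate 2 none of them passed (adjusted p from 0.0517 to 0.108), and over all 18 alternatives Flnc passed in 9, Myh10 in 11 and Sorbs2 in 16.

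Of the 11 members called at either stage, 8 had the same sign at both, and the share among all genes called was not counted. Of these 8, Sorbs2 (0.077 ± 0.089), Synpo (0.067 ± 0.15) and Gsn (0.11 ± 0.20) had adult values smaller than their SE, and the others had larger ones. The interaction test called the effect on Sorbs2 different between the stages. Both down-regulated neonatal members kept a negative value in adult KO, with Capzb at -0.16 ± 0.10. Cnn2, which edgeR called at neither stage and DESeq2 at both, was lower in all KO samples of both models, as were Wdr1, Cfl2 and Capza2. Cfl1 and Myl12a were higher in all KO samples of both. The share of all genes that were apart in the same direction at both stages was not counted. With edgeR the difference between the stages was not called for Cnn2 (-0.44 ± 0.38, adjusted p = 0.582), Wdr1 (-0.20 ± 0.16, adjusted p = 0.544) or Myl12a (0.22 ± 0.15, adjusted p = 0.465).

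Between the CTRL samples of the 2 stages, more members were lower than higher at P90. Of 40 members tested, 18 were lower and 3 higher at P90 than at P14 (45% and 7.5%, beside 14.9% and 14.5% of all 12294 genes, and with 29.3% of genes called in either direction), and the median log2 fold change was -0.59 beside -0.012 over all genes. The largest fall was that of Myl9, from 272, 304 and 95.8 CPM at P14 to 24.8, 19.8 and 15.1 CPM at P90, a log2 fold change of -3.48 ± 0.41 (adjusted p = 0.000543). Flna fell from 239, 177 and 215 to 35.3, 44.6 and 46.9 CPM, a log2 fold change of -2.32 ± 0.16 (adjusted p = 5.54e-05). Both were well apart between stages, and in all 18 members were lower and 6 higher at P90 without overlap between the stages, beside 22.8% and 22.1% of all genes.

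Further falls past the threshold in CTRL came from 5 of the 6 roles, Flna being the falling filamin. Arpc1b, a subunit of the Arp2/3 complex, was at -1.52 ± 0.23 (adjusted p = 0.00193). Tagln2, a calponin family protein, was at -1.42 ± 0.24 (adjusted p = 0.00305). Tpm4, a cytoskeletal tropomyosin, was at -1.08 ± 0.28 (adjusted p = 0.0196), Zyx at -1.003 ± 0.17 (adjusted p = 0.00293) and Myh10 at -0.97 ± 0.16 (adjusted p = 0.00293). In nonmuscle myosin 5 of 6 members fell, the exception being Myl12a at 0.061 ± 0.12 (adjusted p = 0.73). The 3 members that rose were Synpo (0.88 ± 0.21, adjusted p = 0.0143), Cnn2 (0.87 ± 0.18, adjusted p = 0.00724) and Flnc (0.80 ± 0.18, adjusted p = 0.0104).

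Markers of other cells fell in CTRL over the same interval. The smooth muscle and pericyte list summed to between 305 and 315 CPM at P90 (3 of 8 called lower, from between 420 and 531 CPM at P14). Smtn, the largest part of that sum, had a mean of 316 CPM at P14 and 213 CPM at P90. Endothelial markers went from between 279 and 578 CPM to between 242 and 306 CPM (8 of 10 called lower), and fibroblast markers from between 118 and 327 CPM to between 52.4 and 73.9 CPM (5 of 8 tested called lower), with 0 markers of these lists at 0 in a group. Their part in the lower values of the panel at P90 was not tested. The neonatal KO comparison shares its CTRL samples with this one. For the risers, the neonatal KO value and the CTRL stage value stood side by side as follows. Zyx and Myh10 had opposite signs in the 2 comparisons, Synpo and Flnc were called higher in both, and for Sorbs2, Fhl1, Synpo2l, Myl12a and Gsn the CTRL stage value was not called.

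**Figure D3:**
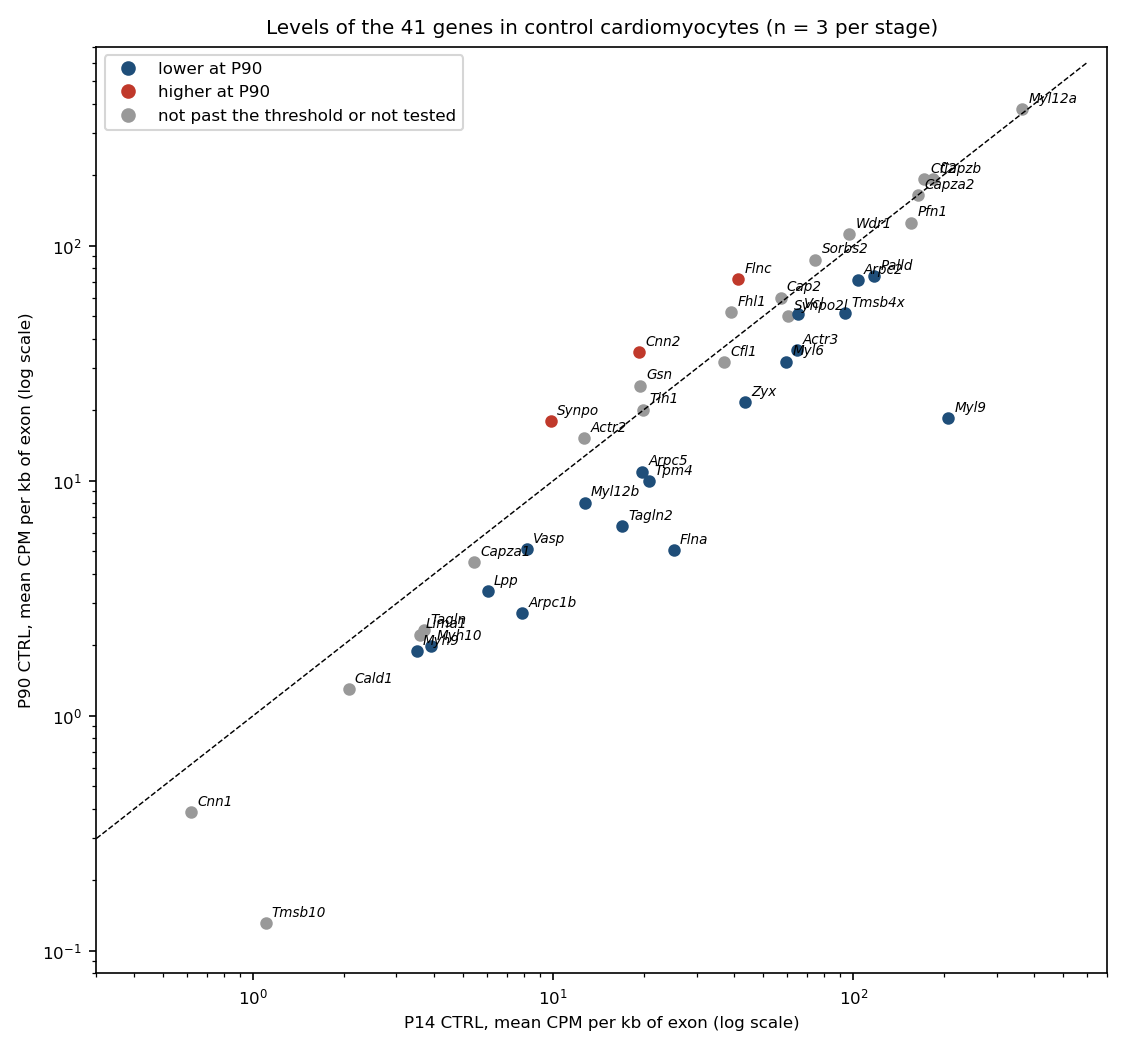
Mean level of each member in CTRL CMs at P14 (horizontal axis) and at P90 (vertical axis), in CPM per kb of exon on log axes, with 3 samples per stage. Blue points are the 18 members that were lower at P90, red points the 3 that were higher, and the dashed line marks equal levels; Myl12a is at the top right and Tmsb10 at the bottom left.

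Levels per kb of exon show which members dominate in CMs. Myl12a had 364 ± 42.1 CPM per kb (SD, n = 3) in neonatal CTRL, above Myl9 with 207 ± 103, Capzb with 184 ± 16.8, Cfl2 with 172 ± 42.5 and Capza2 with 164 ± 25.6, and the latter 4 did not differ beyond their spread. In adult CTRL, Myl12a with 379.7 ± 17.9 was followed by Cfl2 with 192 ± 10.7 and Capzb with 192 ± 10.3, and these last 2 were within their spread. Myl9 was down to 18.4 ± 4.50 CPM per kb there. At the low end were Cald1, Cnn1 and Tmsb10 in all 4 groups, with Tmsb10 at 0.131 ± 0.0321 CPM per kb in adult CTRL.

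Ratios of related genes within a sample do not depend on how libraries are scaled, and 7 pairs were compared per kb on the log2 scale. Flnc over Flna was 0.71 ± 0.13 (SD, n = 3) in neonatal CTRL and 1.86 ± 0.25 in neonatal KO, and 3.82 ± 0.37 in adult CTRL against 3.62 ± 0.25 in adult KO. Neonatal KO thus lay above neonatal CTRL in all samples and below all adult samples. Cfl2 over Cfl1 was 2.20 ± 0.33 in neonatal CTRL and 1.30 ± 0.16 in neonatal KO, and 2.60 ± 0.33 in adult CTRL and 1.84 ± 0.23 in adult KO, lower in KO without overlap at both stages. Capza2 over Capza1 was 4.92 ± 0.09 in neonatal CTRL and 4.42 ± 0.14 in neonatal KO, also without overlap. The exact two-sided permutation p of each of these 4 comparisons was 0.1, the smallest that 3 samples against 3 allow, and 0.35 after adjustment over 14 tests, so 0 ratios passed. Myh10 over Myh9 and the pairs Tagln and Tagln2, Cnn1 and Cnn2, and Tmsb4x and Tmsb10 overlapped between KO and CTRL at both stages.

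**Figure D4:**
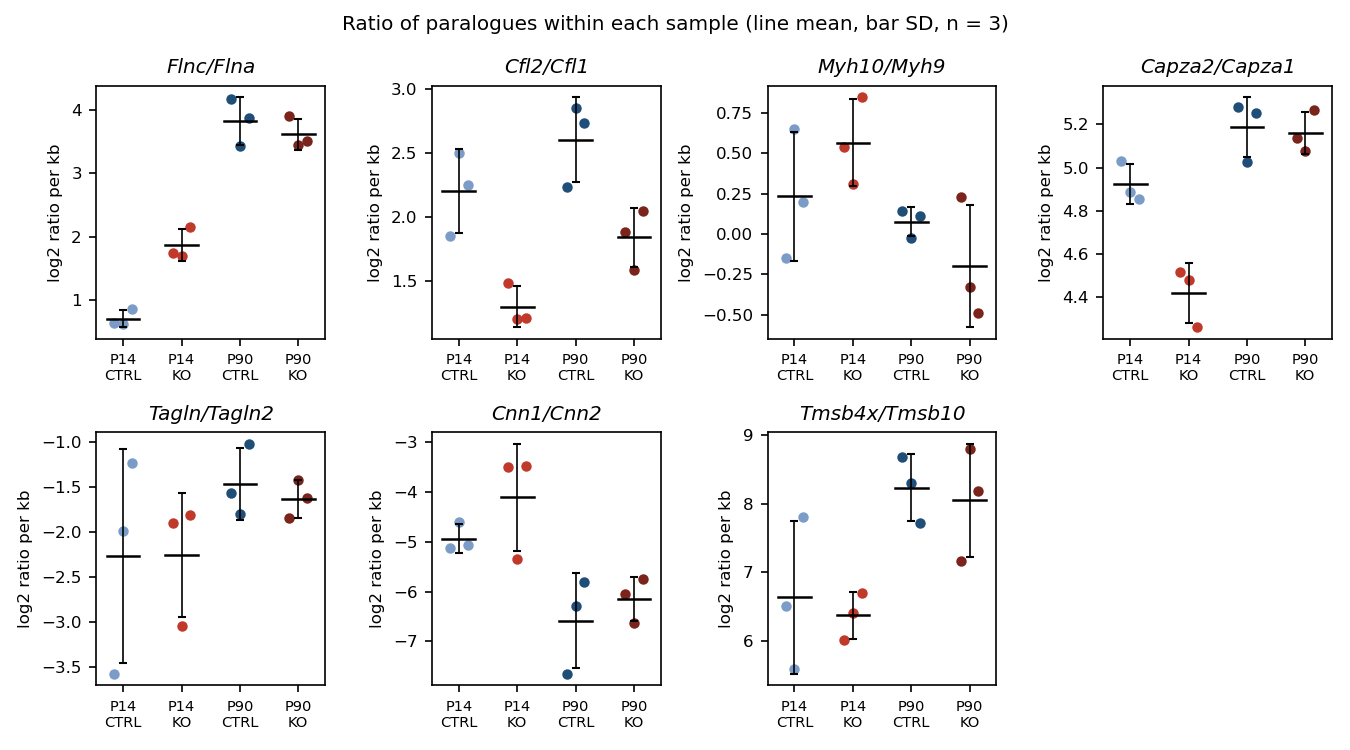
Log2 ratio per kb of exon of 7 gene pairs in each sample (vertical axes, scaled to each pair) for the 4 groups, with the mean as a line and the SD of 3 samples as a bar. The Flnc/Flna ratio of neonatal KO lies above neonatal CTRL and below both adult groups, and the Cfl2/Cfl1 ratio is lower in KO at both stages.

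The promoters of the members were read next, since a CArG box is where SRF binds. Windows of 300 bases, 250 before and 50 after an annotated start (RefSeq, GRCm38.p6, the mm10 build), were read for 39 of the 41 members. Synpo, which was called higher in neonatal KO, and Tagln were left out of the member counts and medians by box. A CArG box, written as CC, 6 bases that are each A or T, and GG, which reads as a CArG box on either strand, was found in 6 members, or 15.4%, beside 1.81% of all 27025 genes with a window. The panel was picked to hold many known SRF targets, so its share beside that of all genes is not a test. The stretch around the box is shown for these 6 members because they hold the letters that SRF recognizes, with the box in capitals and each sequence from 5′ to 3′ on the strand of its gene.
Vcl: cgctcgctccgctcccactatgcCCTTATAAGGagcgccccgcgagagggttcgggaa
Cnn2: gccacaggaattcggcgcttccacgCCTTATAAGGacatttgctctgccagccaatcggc
Myl9: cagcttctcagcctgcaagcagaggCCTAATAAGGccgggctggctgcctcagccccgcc
Myl6: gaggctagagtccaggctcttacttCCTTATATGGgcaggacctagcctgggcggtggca
Lima1: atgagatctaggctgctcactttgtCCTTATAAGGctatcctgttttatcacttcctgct
Fhl1: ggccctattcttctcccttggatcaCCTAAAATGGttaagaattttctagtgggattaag

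The Vcl stretch is at chr14:20929148-20929205 (plus strand), that of Cnn2 at chr10:79988519-79988578 (plus strand) and that of Myl9 at chr2:156775278-156775337 (plus strand). Those of Myl6 at chr10:128493025-128493084 (minus strand), Lima1 at chr15:99820162-99820221 (minus strand) and Fhl1 at chrX:56779556-56779615 (plus strand) complete the set. The box begins 227 bases before the start in Vcl, 161 in Myl9 and 102 in Fhl1. In Cnn2 it begins 56 bases before the start, in Myl6 50 and in Lima1 47. For Myl6 and Fhl1 it belongs to 1 of 2 annotated starts. The starts with a box in Myl6, Fhl1 and Lima1 lie inside the gene as counted, not at its 5′ end. Counts per gene do not show which start was used. In neonatal KO, 5 of these 6 genes had a negative log2 fold change, with a median of -0.41, and 11 of the 33 members without a box did, with a median of 0.16. Among all genes tested at P14, 49.8% had a negative value. The 3 most negative of the 6 were Myl9 at -1.65, Cnn2 at -1.07 and Myl6 at -0.61, and edgeR called none of these. Vcl at -0.084 and Lima1 at -0.20 overlapped between groups. By contrast Fhl1 was called higher. With edgeR 0 members with a box were called lower and 1 higher, beside 2 lower and 7 higher of the 33 without. In adult KO 3 of the 6 were negative, with a median of -0.080 beside 0.047 for members without a box. Allowing 1 mismatch, 17 members (43.6%, the 6 above included) held a box, beside 23.8% of all genes. The letters CATTCC, the MCAT motif of TEAD factors, were in 11 members (28.2%) on either strand, beside 16.6% of genes. Neither Capzb nor Sorbs2, the first of the called falling and rising members, held a CArG box in these windows.

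Genes of the same pathways outside the panel were counted as well. Of 70 such genes 69 were tested in neonatal KO, and 3 were down-regulated and 9 up-regulated (17.4%, beside the 8.59% of all genes). The falling genes were Actg1, the gamma actin of the cytoskeleton, with 182 ± 24.1 CPM (SD, n = 3) in CTRL and 68.7 ± 28.5 CPM in KO (log2 fold change -1.41 ± 0.29, adjusted p = 0.0252), Dstn, a relative of cofilin (-0.86 ± 0.19, adjusted p = 0.0289), and Tpm1, the main tropomyosin of the heart (-0.80 ± 0.17, adjusted p = 0.0276). Among the largest rises were those of Sorbs3, an adaptor related to Sorbs2 (1.47 ± 0.30, adjusted p = 0.0249), Cttn, which stabilizes filament branches (0.79 ± 0.11, adjusted p = 0.0099), and Msn, which ties filaments to the membrane (0.53 ± 0.10, adjusted p = 0.0197). Mkl2, which encodes an MRTF, was also up (0.52 ± 0.13, adjusted p = 0.0443). In adult KO 1 of 68 was called (1.47%, beside 0.39% of all genes), Actg1 again, at 125 ± 11.1 CPM in CTRL and 76.1 ± 8.49 CPM in KO (-0.71 ± 0.11, adjusted p = 0.028). For the interaction edgeR called 0 of 69, with 20 at an unadjusted p under 0.05, beside 1.78% and 19% of all genes. DESeq2 called 5, beside 8.78% of all genes. In CTRL 26 of 69 were lower and 3 higher at P90 than at P14 (42% in either direction, beside 29.3% of all genes, of which 14.9% were lower and 14.5% higher).

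Gene positions (mm10) of members past the threshold include the following. Sorbs2 lies at chr8:45507788-45827906, plus strand, and Zyx at chr6:42349828-42358395, plus strand. Synpo2l is at chr14:20659418-20668306, minus strand, and Fhl1 at chrX:56731787-56793346, plus strand. Flnc spans chr6:29433153-29461888, plus strand, and Myh10 chr11:68691915-68816624, plus strand. The Myl12a gene is at chr17:70993793-71002533, minus strand, next to Myl12b at chr17:70973963-70990516, minus strand. Gsn lies at chr2:35256359-35307902, plus strand, Capzb at chr4:139192931-139291812, plus strand and Wdr1 at chr5:38526813-38561595, minus strand. Sorbs2 exons share 1.38% of their bases with an antisense gene, whose reads cannot be told apart where counting did not use the strand.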

How the data were processed

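CMs were sorted by their reporter, and per the labels cDNA from low-input RNA was amplified (SMART-Seq v4) and single-ended reads were taken from Nextera XT libraries. The submitters' processing notes name CASAVA 1.8, STAR 2.5.3a and featureCounts from Subread 1.5.2 with the build mm10, and the authors deposited raw counts per gene, not normalized, in 2 tables, 1 per stage. The strand setting and the rule for reads with several alignments are not given in the sources used here. No molecular identifiers were used, so the floor of 3 counts covers counting error only.

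The members and gene lists were chosen with earlier results of these data known. Groups and replicate numbers came from sample titles. Replicates are described as biological without the animals being named, so p-values measure the spread between these samples. Counts were tested in R 4.3.3 with edgeR 4.0.16 (filterByExpr, TMM scaling, quasi-likelihood F-test, Benjamini-Hochberg adjustment over all genes, threshold 0.05), each comparison on its own samples and the interaction on all 12. Standard errors (SE) were computed as the fold change over the square root of F. The authors used DESeq2, which was run as an alternative (version 1.42.0). CPM values used TMM-scaled totals over all 12 samples. Ratios used counts plus 0.5 per kb of exon, compared by exact permutation tests. The script was tested on simulated counts. Other alternatives were RLE size factors, no filter on low counts, a loess correction for gene length, a replicate block, a joint fit and leaving out each sample.

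Named were all 41 members, with full values for those called, and for pathway genes the 4 with the largest change per direction and stage, of which 1 is not reported here. Mkl2 was named, and the set of 6 promoters was extended from Fhl1, after values were seen. KO and CTRL share replicate numbers. Deviations from group means of same-numbered samples correlated at 0.131, 0.123 and 0.444 at P14, all above 0.1. However, CTRL 1 with KO 2 (0.163) and CTRL 2 with KO 1 (0.138) were as high. The numbers were thus taken as a possible pairing at P14. The main fit has no term for it, and the replicate block, an alternative, does. If the numbers pair the samples, the main fit leaves the pairing out. At P90 the correlations of same-numbered samples were 0.249, 0.0102 and 0.0689.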

Additional observations from a re-analysis of the deposited data

Results flagged for a closer look

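The effect of Srf KO differed between the neonatal and the adult model for 3 members by the test of the interaction, with the neonatal effect minus the adult effect given on the log2 scale. The difference was 1.24 for Flnc (adjusted p = 0.0399), with KO higher than CTRL in the neonatal model (0.80) and a negative value in the adult model (-0.43). It was 1.12 for Myh10 (adjusted p = 0.0257), from 0.99 at P14 and -0.12 at P90. It was 1.05 for Sorbs2 (adjusted p = 0.0156), from 1.12 at P14 and 0.077 at P90. With the length correction the differences were 0.90, 0.81 and 0.80 in the same order, and all 3 still passed. Without P90 CTRL replicate 3 or without P90 KO replicate 2 none of the 3 passed, and without 1 of the other samples at a time between 1 and 3 members passed.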

How the results depend on the processing

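The count of members called in neonatal KO (11) was 19 in the fit of all 12 samples, and 16 with DESeq2 and with the replicate block. Of all genes, 8.59% were called as reported, 16.3% in the fit of all 12 samples, 14% with DESeq2 and 12.2% with the block. Without 1 sample the count of members ranged from 1 to 12, with the low counts of 1, 2 and 2 each from the loss of a KO sample. In adult KO the count of 1 was 4 with DESeq2, 7 without a filter, 2 with the length correction, 8 with the replicate block, 4 with block and length correction and 0 in the fit of all 12 samples, and ranged from 0 to 3 without 1 sample (3 without KO replicate 1). The share of all genes called moved too, from 0.39% to 2.87%, 3.6%, 0.711%, 5.55%, 1.81% and 0.0234% with these settings in the same order. At P90 the numbers were not taken to pair the samples, so the block shows only how a shared number moves the count. For the interaction, 3 became 8 with DESeq2, 6 without a filter, 8 with the replicate block and 5 with block and length correction, and 0 to 3 without 1 sample (0 without P90 CTRL replicate 3 or P90 KO replicate 2). Of all genes, 1.78% were called as reported, 8.78% with DESeq2, 2.23% without a filter, 5.35% with the block and 2.41% with block and length correction. In CTRL the count of 21 ranged from 15 to 26. Pathway genes called in adult KO (1) were 3 with DESeq2 and 7 with the replicate block, and for the interaction (0) they were 5 and 4. The 6 members with a CArG box became 17 when 1 mismatch was allowed. The causes were not tested, apart from the smaller number of samples in fits that leave out 1.

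Values changed sign only in comparisons where the member was not called. With the length correction, then with block and length correction, the P14 values were -0.052 and -0.052 for Lpp, 0.14 and 0.25 for Tmsb10, and 0.11 and 0.16 for Tmsb4x, and Tmsb10 was 0.081 with the replicate block alone. The P90 values were -0.21 and -0.20 for Myl6, 0.076 and 0.076 for Myh10, and 0.071 and 0.073 for Tln1, and Flna was 0.030 with the length correction alone. Zyx at P90 was 0.0065 without a filter and 0.016 with the replicate block. Leaving out 1 sample at a time changed the sign of 30 further values over 21 combinations of gene and stage, whose ranges over these fits were as follows. At P14 they were Cald1 -0.13 to 0.49, Capza1 -0.080 to 0.21, Cnn1 -0.83 to 0.12, Lima1 -0.37 to 0.024, Lpp -0.045 to 0.23, Tagln -0.14 to 0.55, Tmsb10 -0.48 to 0.34, Tmsb4x -0.21 to 0.17, Tpm4 -0.070 to 0.36 and Vcl -0.14 to 0.0039. At P90 they were Capza1 -0.23 to 0.0047, Cnn1 -0.36 to 0.26, Flna -0.38 to 0.094, Gsn -0.057 to 0.35, Lima1 -0.084 to 0.30, Myl6 -0.075 to 0.15, Palld -0.065 to 0.076, Synpo -0.094 to 0.25, Tln1 -0.29 to 0.0073, Vasp -0.20 to 0.058 and Zyx -0.14 to 0.13.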
